A study of Mus musculus with 8 samples.

Results

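Transcripts of *Dppa2*, *Dppa3*, *Dppa4*, *Dppa5a* and *Zfp42* were followed in 8 RNA-Seq libraries of mouse embryonic stem (ES) cells. These 5 genes were chosen by name, and their Ensembl identifiers were matched to symbols without the version number. All 5 were found among the 43309 genes of the count table, and all 5 were among the 16816 genes tested. The J1 (129SV) cells were grown in serum medium on gelatin without feeder cells and were either *Zbtb24* wild-type (2lox/+) or *Zbtb24* knockout (1lox/1lox), so that 1 allele of the wild-type cells also carries loxP sites. *Zbtb24* encodes a zinc finger protein whose loss causes an immunodeficiency syndrome in humans. Libraries were made from lysed cells with the SMARTer Ultra Low RNA Kit, which copies polyadenylated RNA into cDNA and amplifies it by PCR. Groups of 2 libraries combined each genotype with 1000 cells (10 ng of RNA, 10 PCR cycles) or with 100 cells (1 ng, 18 cycles), so cell number and cycle number cannot be told apart. Replicates are clones according to the series design, but which clone a library came from is not in the labels.

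*Dppa2* and *Dppa4* encode DNA-binding SAP domain proteins that act as a pair on chromatin and are known to open the genes of the 2-cell embryo and to keep developmental promoters primed. *Dppa3*, also called Stella, encodes a small protein of oocytes, primordial germ cells and ES cells that binds UHRF1 and limits maintenance DNA methylation. *Dppa5a* encodes a KH domain RNA-binding protein of the early embryo, and *Zfp42*, also called *Rex1*, encodes a zinc finger protein related to YY1 that marks naive pluripotent cells.

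The libraries held 9666985 to 16686525 counts, and a level is given as CPM (cpm below), the count relative to a library size that TMM normalisation adjusts by a trimmed mean of the ratios between libraries. *Zbtb24* itself, the targeted gene, was at 14.1 and 16.4 cpm in the libraries labelled WT and 40.9 and 37.7 cpm in those labelled KO at 1000 cells, and at 19.5 and 20.3 cpm against 39.7 and 37.3 cpm at 100 cells. Its count was therefore higher in every library labelled KO, which goes against the label, although a count over all exons does not show a missing exon. All directions below are those of the labels. All 7 ES cell markers had at least 10 counts in every group, and their summed level was 2736.0 to 3002.7 cpm in the libraries labelled WT and 3202.5 to 3537.3 cpm in those labelled KO. *Tdgf1* alone made up most of this sum, with a mean of 1769.6 cpm in WT at 1000 cells. The 7 did not move together, since 3 were called higher and 1 lower in labelled KO at each input. *Nanog* and *Sox2* were higher at both, *Esrrb* at 1000 cells only and *Pou5f1* at 100 cells only. The lower marker was *Pou5f1* at 1000 cells and *Fbxo15* at 100 cells. Scaling by library size alone gave 3 higher and 2 lower at 1000 cells. The 6 neural and glial markers, which were read because their transcripts define other cells, summed to 12.4 to 14.0 cpm in the libraries labelled WT, 26.1 to 26.7 cpm in KO at 1000 cells and 301.1 to 307.7 cpm in KO at 100 cells. None of the 6 was at 0 in any group. All 6 were higher in labelled KO than in labelled WT at 100 cells (edgeR, adjusted p at most 0.00365), and *Snap25*, a synaptic gene, had 1121 and 1021 counts there against 17 to 44 in every other library. Both KO libraries of 100 cells thus stood apart from the other 6, and the part of these transcripts in the results at 100 cells was not tested. At 1000 cells 3 of the 6 markers were called higher in labelled KO too, with a median log2 ratio of 0.75 over the 6. Of all tested genes 20.9% were called higher there. Scaling by library size alone left 2 of the 6, with the call of *Snap25* lost (0.74, edgeR, adjusted p = 0.0542). In bulk RNA, fewer cells that express a gene and less RNA per cell cannot be told apart.

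At both inputs *Dppa2*, *Dppa3*, *Dppa4* and *Zfp42* were lower in the libraries labelled KO than in those labelled WT, and *Dppa3* had the largest ratio of the 5. *Dppa5a* went the other way at 1000 cells and showed no call at 100 cells. The ratio was 1.6-fold lower for *Dppa2*, 1.54-fold lower for *Dppa4* and 2.27-fold lower for *Dppa3* at 1000 cells, where *Zfp42* was 1.2-fold lower and *Dppa5a* 1.23-fold higher. Calls were made with the quasi-likelihood test of edgeR on all 16816 genes with 0.05 as the highest adjusted p (Benjamini-Hochberg). At 1000 cells, 4 of 5 genes were called lower, against 20.6% of all tested genes, and 1 was called higher, against 20.9%. At 100 cells, 4 of 5 were called lower, against 16.6%, and 0 were called higher, against 17.6%. With 2 libraries a group the tests rest on a spread shared across genes, and p-values measure only the spread between these libraries. The plot of levels by library shows all 8 values of each gene, and the plot of ratios shows the corresponding fits. Where libraries of different groups are said to lie apart, the share of all tested genes that do so was not counted. Such separation is therefore only a description.

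**Figure D1:**
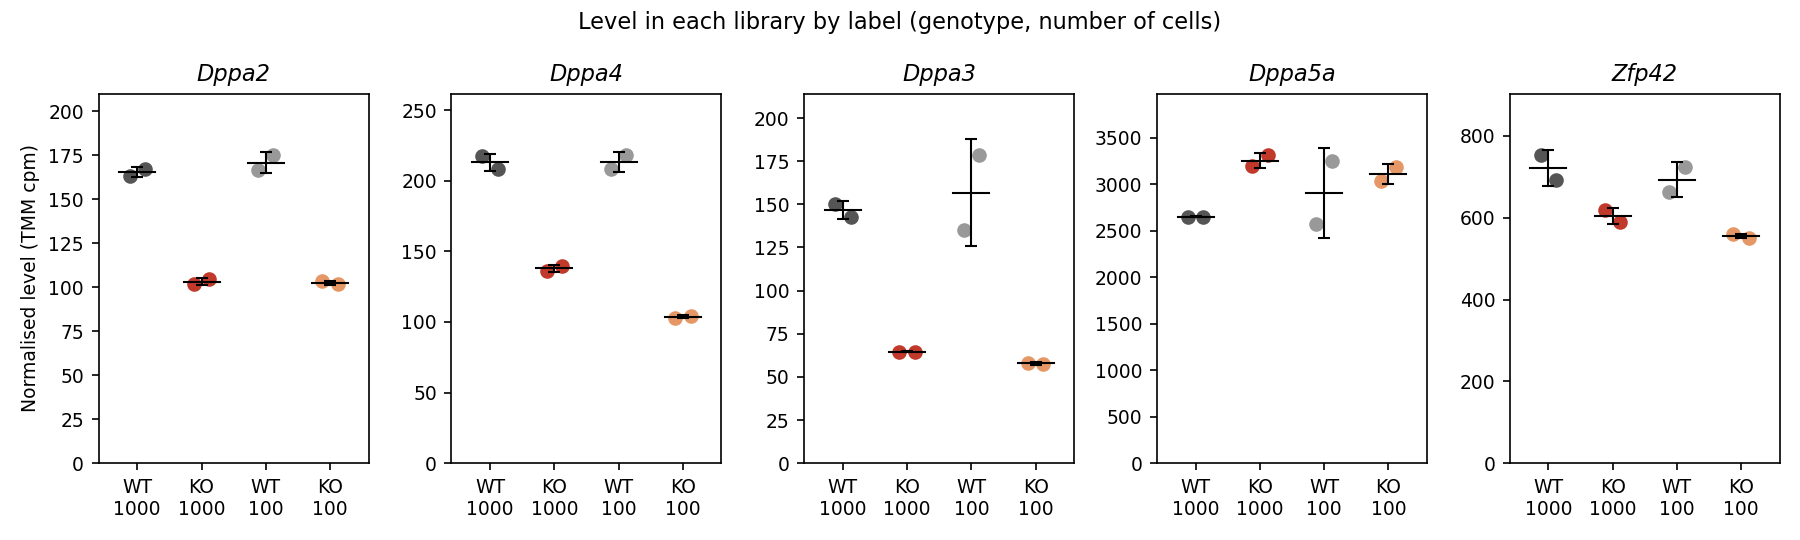
Normalised level (TMM cpm, y axis from 0) of the 5 genes in each library, by genotype label and number of cells (x axis). Points are libraries, horizontal lines the group means and bars the SD (n = 2). *Dppa2*, *Dppa3*, *Dppa4* and *Zfp42* show both KO libraries below both WT libraries at each input, and *Dppa5a* shows KO above WT at 1000 cells and an overlap at 100 cells, where the WT libraries lie at 2568 and 3252 cpm.

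**Figure D2:**
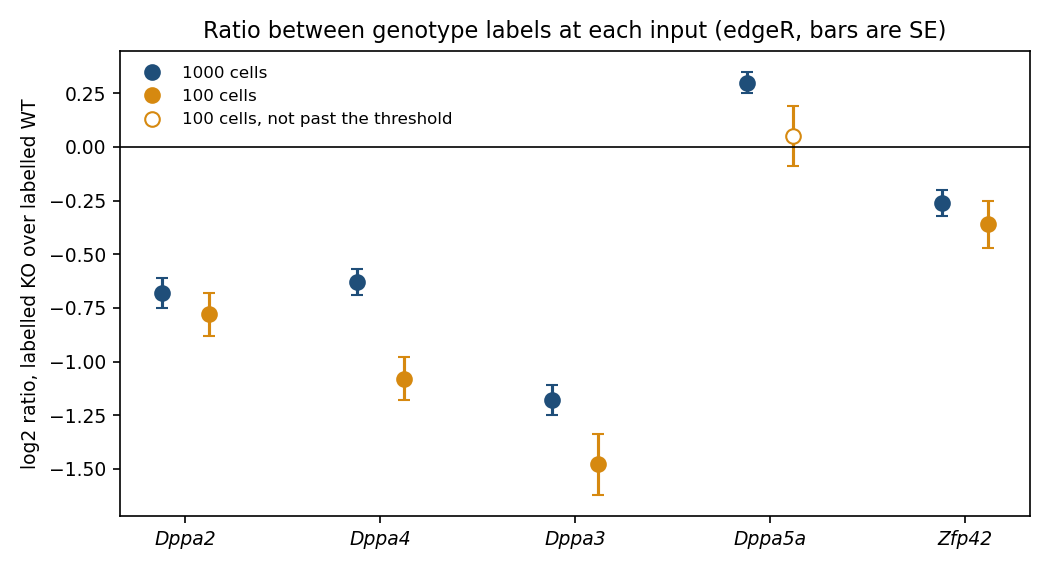
Log2 ratio of labelled KO over labelled WT (y axis) for each gene (x axis) at 1000 and 100 cells, from edgeR with bars of 1 SE. Filled points passed an adjusted p of 0.05. *Dppa3* lies lowest at both inputs (-1.18 and -1.48), and *Dppa5a* is the only gene above 0 (0.30 and 0.05).

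*Dppa2* (ENSMUSG00000072419, GRCm38 chromosome 16, 48303908 to 48319723, plus strand, 2447 bp of exons) and *Dppa4* (ENSMUSG00000058550, chromosome 16, 48283733 to 48294237, plus strand, 1662 bp of exons) lie next to each other, with 20.2 kb between their starts. The level of *Dppa2* stood, with 1000 cells, at 163.3 and 167.3 cpm in the WT libraries, as against 101.6 and 104.7 cpm in the KO libraries. With 100 cells the WT libraries had 166.7 and 175.0 cpm, and 103.3 and 101.6 cpm were counted in KO. The 4 libraries labelled KO were all below the 4 labelled WT, and the KO groups of both inputs overlapped. The log2 ratio of KO to WT was -0.68 ± 0.07 (SE) at 1000 cells (edgeR, adjusted p = 2.17e-09) and -0.78 ± 0.10 at 100 cells (edgeR, adjusted p = 0.000652). Differences between inputs come from 1 fit of all 8 libraries and need not equal the difference of the ratios printed. For *Dppa2* it was -0.06 ± 0.12 on the log2 scale and did not pass the test (edgeR interaction, adjusted p = 0.777).

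*Dppa4* stood, with 1000 cells, at 217.5 and 208.6 cpm in the WT libraries, as against 136.1 and 139.9 cpm in the KO libraries. With 100 cells the WT libraries had 208.6 and 218.2 cpm, and 103.1 and 104.4 cpm were counted in KO. The WT groups overlapped each other, while the KO libraries of 100 cells were the lowest of all, below those of 1000 cells. The log2 ratio of KO to WT was -0.63 ± 0.06 at 1000 cells (edgeR, adjusted p = 4.31e-09) and -1.08 ± 0.10 at 100 cells (edgeR, adjusted p = 0.00014). *Dppa4* was the only 1 of the 5 genes whose ratio differed between inputs, by -0.41 ± 0.12 on the log2 scale (edgeR interaction, adjusted p = 0.0276), where 7.05% of all tested genes had a negative interaction past the threshold. This call was lost when any 1 of 6 libraries was left out, with adjusted p-values from 0.0623 (without KO replicate 1 at 1000 cells) to 0.126 (without KO replicate 1 at 100 cells) from edgeR, namely each WT library of 1000 cells and each KO library. The difference itself stayed between -0.45 and -0.39 in those 6 fits. It was also lost with offsets for GC content and length, which gave -0.30 (edgeR, adjusted p = 0.0758). The neural and glial markers moved with the same 2 KO libraries, and their part in this difference was not tested.

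The relation of *Dppa2* to *Dppa4* within a library does not depend on how libraries are scaled. The count of *Dppa2* per count of *Dppa4* was 0.751 and 0.802 in the 1000-cell WT libraries, 0.799 and 0.802 in the 100-cell WT libraries, and 0.746 and 0.749 in the 1000-cell KO libraries. In KO at 100 cells it was 1.0 and 0.973, so that both libraries lay above the other 6. The pair therefore kept a similar ratio of counts in both 1000-cell groups. From 1000 to 100 cells in KO, TMM scaling gave log2 ratios of -0.41 for *Dppa4* and -0.01 for *Dppa2*. Scaling by library size alone gave -0.42 and -0.02. With offsets for GC content and length these were -0.25 and 0.22. *Dppa4* was thus lower at 100 cells in each of these settings, while the value of *Dppa2* depended on the offsets.

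*Dppa3* (ENSMUSG00000046323, chromosome 6, 122626410 to 122630272, plus strand, 892 bp of exons) stood, with 1000 cells, at 150.3 and 142.9 cpm in the WT libraries, as against 64.7 and 64.5 cpm in the KO libraries. With 100 cells the WT libraries had 135.0 and 178.5 cpm, and 58.3 and 57.3 cpm were counted in KO. The KO libraries were all below the WT libraries, but the WT replicates of 100 cells differed by 32.3%. The log2 ratio of KO to WT was -1.18 ± 0.07 at 1000 cells (edgeR, adjusted p = 8.97e-14) and -1.48 ± 0.14 at 100 cells (edgeR, adjusted p = 0.000138). The difference between inputs, -0.26 ± 0.16, did not pass the test (edgeR interaction, adjusted p = 0.288). Without WT replicate 1 of 100 cells, the lower of the 2, it was called at -0.44 (edgeR, adjusted p = 0.00163).

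*Dppa5a* (ENSMUSG00000060461, chromosome 9, 78367052 to 78368177, minus strand, 619 bp of exons) was the most abundant of the 5. It stood, with 1000 cells, at 2645 and 2653 cpm in the WT libraries, as against 3195 and 3314 cpm in the KO libraries. With 100 cells the WT libraries had 2568 and 3252 cpm, and 3035 and 3186 cpm were counted in KO. The groups were apart at 1000 cells and overlapped at 100 cells, where both KO libraries lay between the WT libraries. The log2 ratio was 0.30 ± 0.05 at 1000 cells (edgeR, adjusted p = 1.27e-05) and 0.05 ± 0.14 at 100 cells (edgeR, adjusted p = 0.788). With GC and length offsets the ratio at 1000 cells was 0.18 (edgeR, adjusted p = 0.00143). The value at 100 cells moved with the WT replicates, since it was 0.24 without WT replicate 2 (edgeR, adjusted p = 0.000572) and -0.10 without WT replicate 1 (edgeR, adjusted p = 0.143). The ratio did not differ between inputs past the threshold (-0.20 ± 0.15, edgeR interaction, adjusted p = 0.37), and without WT replicate 1 of 100 cells this difference was called at -0.36 (edgeR, adjusted p = 0.000214).

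*Zfp42* (ENSMUSG00000051176, chromosome 8, 43295063 to 43306980, minus strand, 1881 bp of exons) stood, with 1000 cells, at 753.0 and 691.4 cpm in the WT libraries, as against 617.8 and 589.8 cpm in the KO libraries. With 100 cells the WT libraries had 662.7 and 723.9 cpm, and 559.5 and 551.3 cpm were counted in KO. All KO libraries were below all WT libraries, by less than for the *Dppa2* to *Dppa4* genes. The log2 ratio was -0.26 ± 0.06 at 1000 cells (edgeR, adjusted p = 0.00053) and -0.36 ± 0.11 at 100 cells (edgeR, adjusted p = 0.0251), with a difference of -0.06 ± 0.12 that did not pass the test (edgeR interaction, adjusted p = 0.773). The call at 100 cells was lost without KO replicate 1 (-0.37, edgeR, adjusted p = 0.387) and without KO replicate 2 (-0.36, edgeR, adjusted p = 0.409), where a single KO library is assumed to vary like the rest. It was also lost when genes with at least 1 count were tested (-0.34, edgeR, adjusted p = 0.0661) and under the replicate block with GC and length offsets (-0.28, edgeR, adjusted p = 0.0706).

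Of the 5 genes, 1 had a promoter sequence in the reference used here, from RefSeq on GRCm38.p6. The 250 bases before the RefSeq start of *Zfp42* (chr8:43307010-43307259, minus strand) are shown because they hold the octamer ATTTGCAT, in capitals, the DNA word read by POU factors such as OCT4.

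Zfp42 promoter: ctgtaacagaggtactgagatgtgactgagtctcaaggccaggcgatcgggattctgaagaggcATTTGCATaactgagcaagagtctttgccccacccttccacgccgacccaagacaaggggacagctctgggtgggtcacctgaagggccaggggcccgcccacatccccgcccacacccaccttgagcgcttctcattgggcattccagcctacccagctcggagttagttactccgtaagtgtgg

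The octamer began 186 bases before the start, and on either strand this word was found in 1.74% of 32851 promoter windows of 300 bases. The reported core of the ZBTB24 binding sequence, CAGGACCT, was in 1.99% of windows and not in that of *Zfp42*. The window of *Zfp42* held 11 CpG sites and 57.7% GC, against medians of 7 and 52.7%. *Pou5f1*, which encodes OCT4, had means of 52.5 ± 3.81 (WT; SD, n = 2) and 39.8 ± 4.13 cpm (KO) with 1000 cells, and of 64.3 ± 15.7 and 91.1 ± 3.36 cpm with 100 cells, so its ratio was called lower at 1000 cells (-0.41, edgeR, adjusted p = 0.000735) and higher at 100 cells (0.46, edgeR, adjusted p = 0.0435). *Gm19553* on the opposite strand overlaps 14.1% of its exon bases, which makes its unstranded count uncertain.

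Levels of different genes were compared as cpm per kb of exons. In WT at 1000 cells *Dppa5a* was highest at 4279.5 ± 8.57 (SD, n = 2), and *Zfp42* followed at 384.0 ± 23.2, *Dppa3* at 164.4 ± 5.84, *Dppa4* at 128.2 ± 3.81 and *Dppa2* at 67.6 ± 1.15. Each neighbouring pair in this order was further apart than the spread of its replicates. That spread does not cover errors that differ between genes, such as the loss of fragments from shared sequence described below. The order of genes with close values is therefore uncertain. In KO at 1000 cells *Dppa4* stood at 83.0 ± 1.6 and *Dppa3* at 72.4 ± 0.164, the reverse of the WT order. In KO at 100 cells *Dppa3* was at 64.8 ± 0.792 and *Dppa4* at 62.4 ± 0.556, next to each other. Among 16697 tested genes with a known length, *Dppa5a* ranked between 5 and 7 in every library. *Zfp42* ranked between 115 and 156 in WT and between 167 and 198 in KO, and *Dppa2* moved from between 861 and 924 to between 1413 and 1438.

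Sequence shared with other genes could remove fragments from these counts, since fragments that fit several places were discarded. Of all 50-base windows along the transcripts, 29.07% of *Dppa2*, 16.51% of *Dppa3*, 31.28% of *Dppa4*, 38.6% of *Dppa5a* and 8.52% of *Zfp42* also occur in another annotated gene, mostly processed pseudogenes. No exon of the 5 overlaps another gene. Of the genes that share windows, 7 are not analysed here, among them *Dppa5b*, *Dppa5c* and the only copy for *Zfp42*. Of the rest, the pseudogenes had at most 46 counts in a library, for *Gm14058*, a *Dppa4* pseudogene, or 1.15% of the counts of *Dppa4* over all libraries. *Pigp*, which shares windows with *Dppa5a*, had up to 478 counts, or 0.783% of those of *Dppa5a*.

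The comparison of 100 with 1000 cells asked how input changed each level. In the libraries labelled WT, 0 of 5 genes were called by edgeR, with log2 ratios from -0.07 to 0.12 and adjusted p-values from 0.772 to 0.984, and 0.827% of all tested genes were called in either direction. None of the 5 had an unadjusted p under 0.05 there, and DESeq2, limma-voom and the exact test of edgeR also called 0. The widest of these was *Dppa5a* at 0.12 ± 0.12. The chi-square per gene between replicates was 17.6 in WT at 100 cells and 1.99 to 3.28 in the other groups. Few calls in WT therefore do not show that input changed WT less than KO. Leaving out WT replicate 1 of 100 cells called *Dppa5a* at 0.26 (edgeR, adjusted p = 2.6e-05) and *Dppa3* at 0.25 (edgeR, adjusted p = 0.0226). In the libraries labelled KO, 2 of 5 were called lower at 100 cells, against 24.8% of all tested genes. *Dppa4* changed by -0.41 ± 0.06 (edgeR, adjusted p = 7.61e-07) and was called under all 16 alternatives, with log2 ratios between -0.42 and -0.25. *Zfp42* changed by -0.12 ± 0.05 (edgeR, adjusted p = 0.0452), and 5 of 16 alternatives kept the lower call, while the replicate block with GC and length offsets called it higher (0.09, edgeR, adjusted p = 0.0274). *Dppa3* had -0.16 ± 0.07 (edgeR, adjusted p = 0.0648), *Dppa5a* -0.06 ± 0.05 and *Dppa2* -0.01 ± 0.06. With offsets for GC content and length, *Dppa2*, *Dppa3* and *Dppa5a* were instead called higher at 100 cells in KO, at 0.22, 0.18 and 0.15 (edgeR, adjusted p = 0.00151, 0.0321 and 0.00233).

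Genes around each member were read to ask whether neighbours on the chromosome had similar ratios. Beside *Dppa2* and *Dppa4*, *Morc1*, a gene of germ cell chromatin that starts 127.3 kb after *Dppa2*, was lower in KO at both inputs (-0.67 and -0.78, edgeR, adjusted p = 1.16e-08 and 0.00122). *Dzip3* (0.13 and 0.03) was not called, and *Cip2a* was higher at 1000 cells (0.27, edgeR, adjusted p = 0.00131) but not called at 100 cells (0.11). The lower ratios thus fell on the 3 consecutive genes *Dppa4*, *Dppa2* and *Morc1*, among which every ratio was -0.63 or lower. The median of 40 expressed genes (mean of at least 10 cpm) within 10 Mb was 0.14 at 1000 cells and -0.14 at 100 cells.

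*Dppa3* lies in a cluster of genes of pluripotent cells in which neighbours moved in opposite directions. *Gdf3*, a TGF-beta family ligand at -16.3 kb from its start, was lower in KO (-0.46 and -1.05, edgeR, adjusted p = 4.57e-07 and 0.000442). *Nanog*, a core pluripotency factor 81.1 kb after it, was higher (1.13 and 0.58, edgeR, adjusted p = 1.45e-15 and 0.00269), as were the glucose transporter gene *Slc2a3* (1.41 and 0.86) and the RNA-editing gene *Apobec1* (1.27 and 0.56). *A2m*, near the edge of the window, had 2.84 and 2.31. Of 16 tested genes within 1 Mb, 6 were higher and 3 lower at 1000 cells, and 4 were higher and 5 lower at 100 cells.

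Around *Dppa5a*, the nearest tested gene was *Ooep*, a KH domain gene of the maternal complex that starts at -10.5 kb from it, and it was higher in KO at both inputs (0.73 and 0.51, edgeR, adjusted p = 2.05e-08 and 0.018). Among 18 tested genes within 1 Mb, 6 were higher and 1 lower at 1000 cells, and 2 were higher and 3 lower at 100 cells. *Zfp42* had few neighbours. *Triml2* (-0.24 and -0.58, edgeR, adjusted p = 0.0112 and 0.00372) and *Triml1* (-0.45 and -0.78, edgeR, adjusted p = 0.000144 and 0.00177), tripartite motif genes downstream of it, were lower in KO too. The third tested gene within 1 Mb, *Adam34*, had a mean of 0.375 cpm and was called higher at 100 cells (edgeR, adjusted p = 0.00314) and not at 1000 cells. Its log2 ratio was 7.22 at 100 cells, but 0.00 at 1000 cells and between inputs in WT. It thus passed the filter on low counts only through the KO libraries of 100 cells, so its call is a description. With *Adam34* counted, 0 were higher and 2 lower at 1000 cells, and 1 was higher and 2 were lower at 100 cells. On chromosome 8 as a whole, 247 of 472 expressed genes were lower in KO at 1000 cells and 71 higher, with a median log2 ratio of -0.25, close to the -0.26 of *Zfp42*. At 100 cells the median was -0.26, and within 10 Mb of *Zfp42* the medians of 41 genes were -0.40 and -0.50 with 0 genes called higher. Expressed genes of all chromosomes had medians of 0.02 and -0.04. Of these 8368 genes, 2283 were called lower and 2543 higher at 1000 cells, and 1776 lower and 1444 higher at 100 cells. Chromosomes 6, 9 and 16, which hold the other members, had medians between -0.07 and 0.05. The lower level of *Zfp42* thus moved with that of its chromosome, whose part in it was not tested. The plot of neighbouring genes shows these ratios in order.

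**Figure D3:**
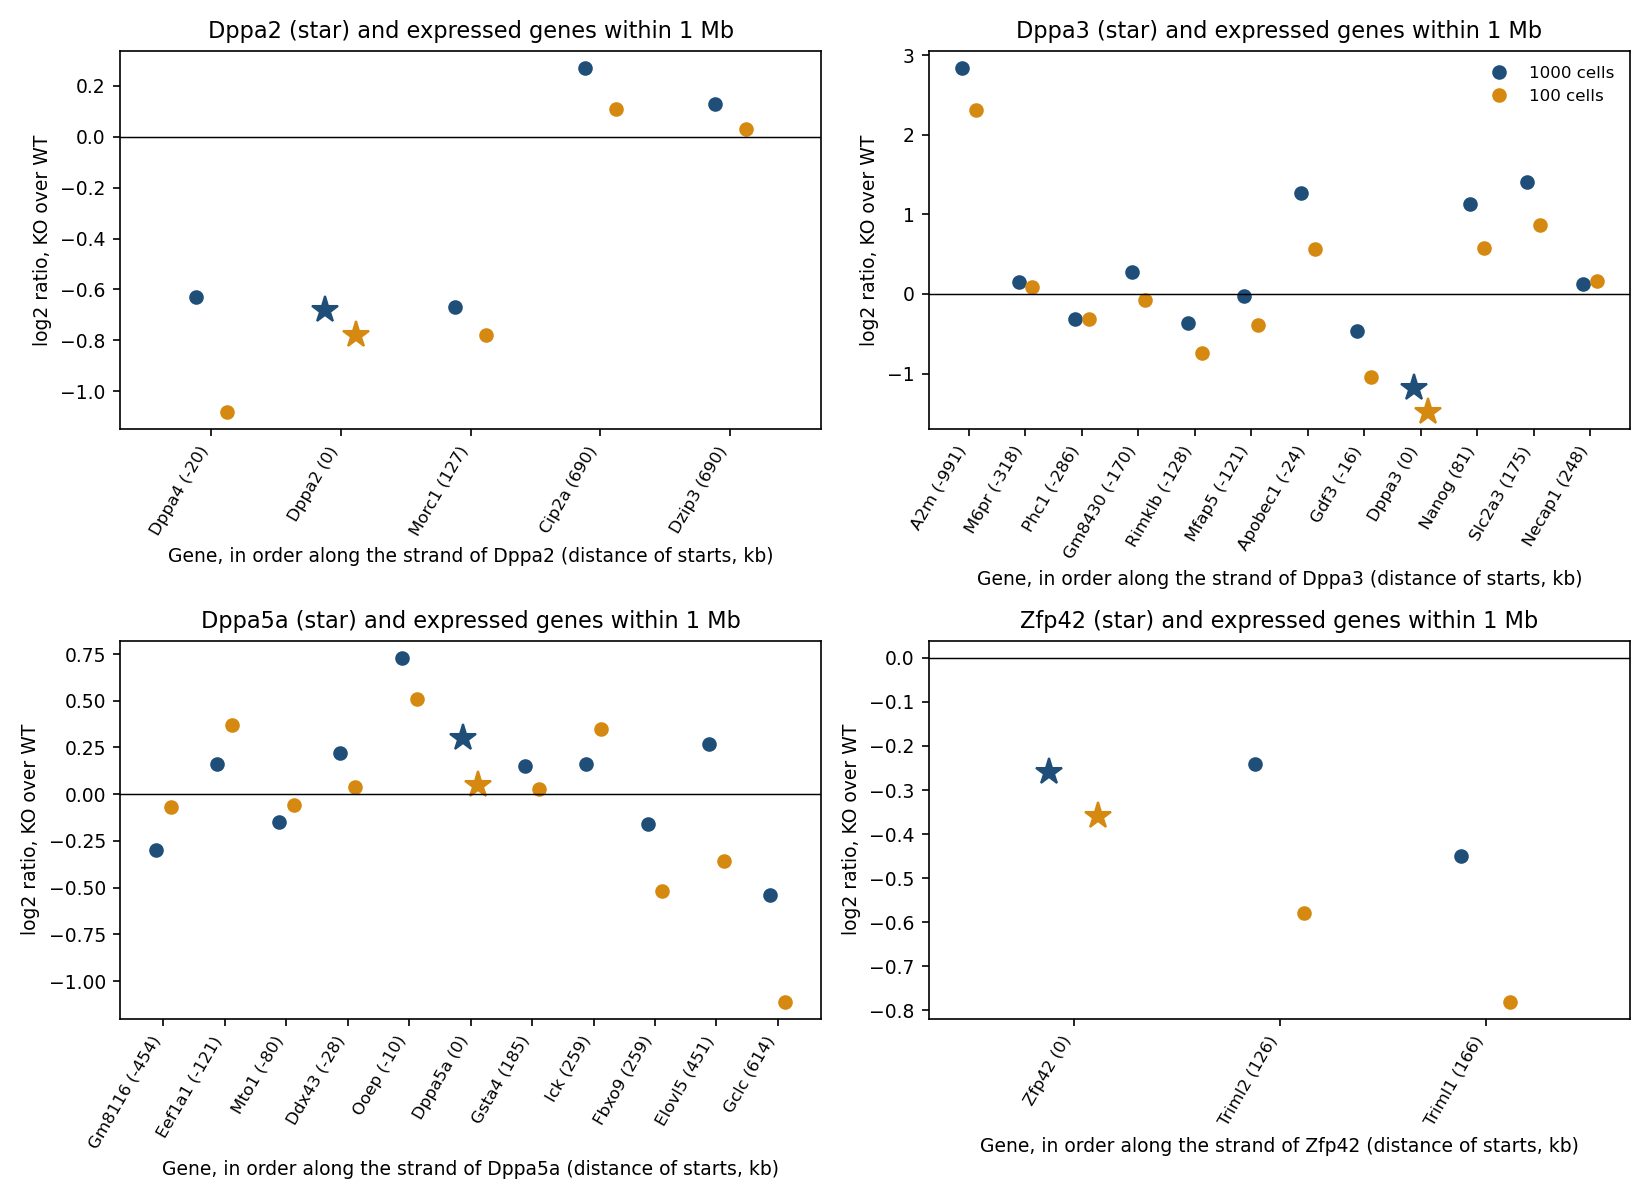
Log2 ratio of labelled KO over labelled WT (y axis) of the members (stars) and of genes within 1 Mb whose mean was 10 cpm or more (points), in order along the strand of the member, with the distance between starts in kb beside each name (x axis); colours give the input. *Dppa4*, *Dppa2* and *Morc1* lie together below 0, *Dppa3* lies between *Gdf3* below 0 and *Nanog* above 0, and all 3 genes of the *Zfp42* panel lie below 0.

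Genes with known ties to the members were then described from the same tests. The lists were put together from general knowledge, and their medians stand beside a median of -0.001 over all tested genes at both inputs. Counts of calls in the lists, and in the windows around members, have their own background. Of all tested genes 20.6% were called lower and 20.9% higher at 1000 cells. At 100 cells these shares were 16.6% and 17.6%. Of 17 genes of the 2-cell stage, which DPPA2 and DPPA4 are known to activate, 15 were in the table and 7 were tested. Their counts came almost entirely from a single library. The 5 *Zscan4* genes summed to 909 counts in WT replicate 2 of 1000 cells and to between 0 and 21 in the other 7 libraries, and *Usp17le* had 65 counts there and at most 5 elsewhere. At 100 cells 1 of 7 was called lower in KO, *Zscan4d*, with 5 and 8 counts in WT and 0 in KO. The 7 tested genes passed the filter on low counts only through the WT libraries of 1000 cells, so their calls there were set by that choice and are a description. At 1000 cells 6 of 7 were called lower, and without that library 0 of 7 were (edgeR, lowest adjusted p = 0.263), with 0 at an unadjusted p under 0.05. Several *Zscan4* copies share most of their windows (85.54% for *Zscan4c* and 86.82% for *Zscan4f*), and fragments from these windows were left out of the counts. *Dppa2* and *Dppa4* in the same library were 167.3 and 208.6 cpm, beside 163.3 and 217.5 cpm in its replicate.

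Among 12 repressors of 2-cell genes, 5 were lower and 3 higher in KO at 1000 cells, with a median log2 ratio of -0.15, and 2 were lower and 2 higher at 100 cells, with a median of 0.03. Scaling by library size alone gave 7 lower and 2 higher at 1000 cells. The noncanonical Polycomb genes *L3mbtl2* (-1.10 and -0.49) and *Mga* (-0.46 and -0.36) were lower at both inputs, although *L3mbtl2* shares 17.21% of its exon bases with *Chadl* on the other strand. Of the other genes of that complex in the list, *E2f6* was called higher at 1000 cells (0.28, edgeR, adjusted p = 0.0338), a call lost with library size alone, and not at 100 cells (0.37), while *Max* (0.05 and 0.06) and *Pcgf6* (0.00 and -0.18) were not called. *Kdm1a*, which encodes a histone demethylase, was higher at both (0.33 and 0.66). *Rif1* was lower at 1000 cells (-0.49), with means of 851.5 (WT) and 607.9 cpm (KO). *Chaf1a*, a histone chaperone subunit, was called lower at 1000 cells (-0.82) and higher at 100 cells (0.65), but *Ubxn6* on the other strand overlaps 52.5% of its exon bases. Of 4 tested genes reported to depend on DPPA2 or DPPA4, 0 were called by edgeR at either input, and 1 had an unadjusted p under 0.05 at each. DESeq2 and limma-voom also called 0, while the exact test of edgeR called 1 at 100 cells. *Nkx2-5* and *Pdgfra* reached 10 counts only in KO libraries of 100 cells and had at most 3 counts in each 1000-cell library. A lower call was therefore hardly possible for them at 1000 cells, and their ratios at 100 cells are a description. The 0 calls thus do not show that these genes were unchanged. *Syce1*, the only 1 of them above 10 cpm, had means of 36.9 ± 1.27 (WT) and 36.6 ± 0.591 cpm (KO) with 1000 cells. *Mkrn3*, with 50 to 109 counts a library, had ratios above 0 that were not called (0.51 and 0.67, edgeR, adjusted p = 0.0736 and 0.0628). The medians of the 4 were 0.78 and 0.60, which include the low counts of *Nkx2-5* and *Pdgfra*.

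Of the 6 partners of DPPA3 and TET enzymes, 1 was lower in KO at 1000 cells and 1 higher at 100 cells, with medians of -0.09 and 0.03. *Uhrf1*, whose product DPPA3 binds, had log2 ratios of -0.03 and -0.08 and was not called. *Tet1*, which encodes an enzyme that oxidises methylated cytosine, was lower at 1000 cells (-0.43, edgeR, adjusted p = 8.97e-07) and was not called at 100 cells (-0.24, edgeR, adjusted p = 0.208). *Dnmt1*, the maintenance methyltransferase gene, was not called at 1000 cells (-0.15), although scaling by library size alone called it lower (-0.23), and was higher at 100 cells (0.36, edgeR, adjusted p = 0.0476).

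Of 5 tested relatives, the ligase and targets of ZFP42, 3 were lower in KO at 1000 cells and 4 at 100 cells and none was higher, with medians of -0.51 and -0.56. *Xist*, the RNA that silences an X chromosome, had log2 ratios of -1.02 and -2.04 (edgeR, adjusted p = 1.21e-08 and 6e-05), with means of 35.1 ± 0.261 (WT) and 8.79 ± 1.35 cpm (KO) for 100 cells. Its antisense partner *Tsix* had ratios of -1.75 and -3.36, and the 2 overlap on opposite strands over 12.57% of the exon bases of *Xist* and 32.58% of those of *Tsix*. Counting used no strand, so both values are uncertain. *Peg3*, an imprinted zinc finger gene, was lower at both inputs (-0.51 and -0.47, edgeR, adjusted p = 3.77e-07 and 0.0152). *Rlim*, the ligase that degrades ZFP42, was not called at 1000 cells (-0.12), although scaling by library size alone called it lower (-0.21), and was lower at 100 cells (-0.56, edgeR, adjusted p = 0.0152). *Yy1* was not called (0.18 and -0.22).

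Beside *Dppa5a*, 4 of 8 KHDC family and maternal complex genes were tested, of which 1 was higher and 2 were lower in KO at 1000 cells, and 1 was higher and 3 were lower at 100 cells, with medians of -0.59 and -0.79. *Khdc3*, a KH domain gene of the same family, was lower (-1.06 and -0.87, edgeR, adjusted p = 7.56e-08 and 0.00251), while *Ooep* was higher, so members of the family differed in direction. Exons of *Khdc3* overlap *Gm20509* over 38.54% of their bases. *Tle6*, a partner of OOEP, was lower (-0.67 and -0.70, edgeR, adjusted p = 0.00133 and 0.0204).

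Among 12 other transcripts of ES cells, 4 were higher and 5 lower in KO at 1000 cells, and 3 were higher and 4 lower at 100 cells, with medians of -0.04 and -0.05. Scaling by library size alone gave 3 higher and 6 lower at 1000 cells. *Dnmt3l*, a cofactor of DNA methylation, had means of 197.3 ± 1.7 (WT) and 74.4 ± 0.609 cpm (KO) with 1000 cells, and *Nr0b1*, an orphan receptor gene, had 97.6 ± 1.55 cpm and 48.0 ± 2.42 cpm. Both were also lower at 100 cells (-1.35 and -1.34). *Sox2* was higher at both inputs (0.51 and 0.71). The negative ratios of *Dppa2*, *Dppa3* and *Dppa4* thus stood beside ES cell transcripts that were called in either direction, as the plot of related genes shows.

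**Figure D4:**
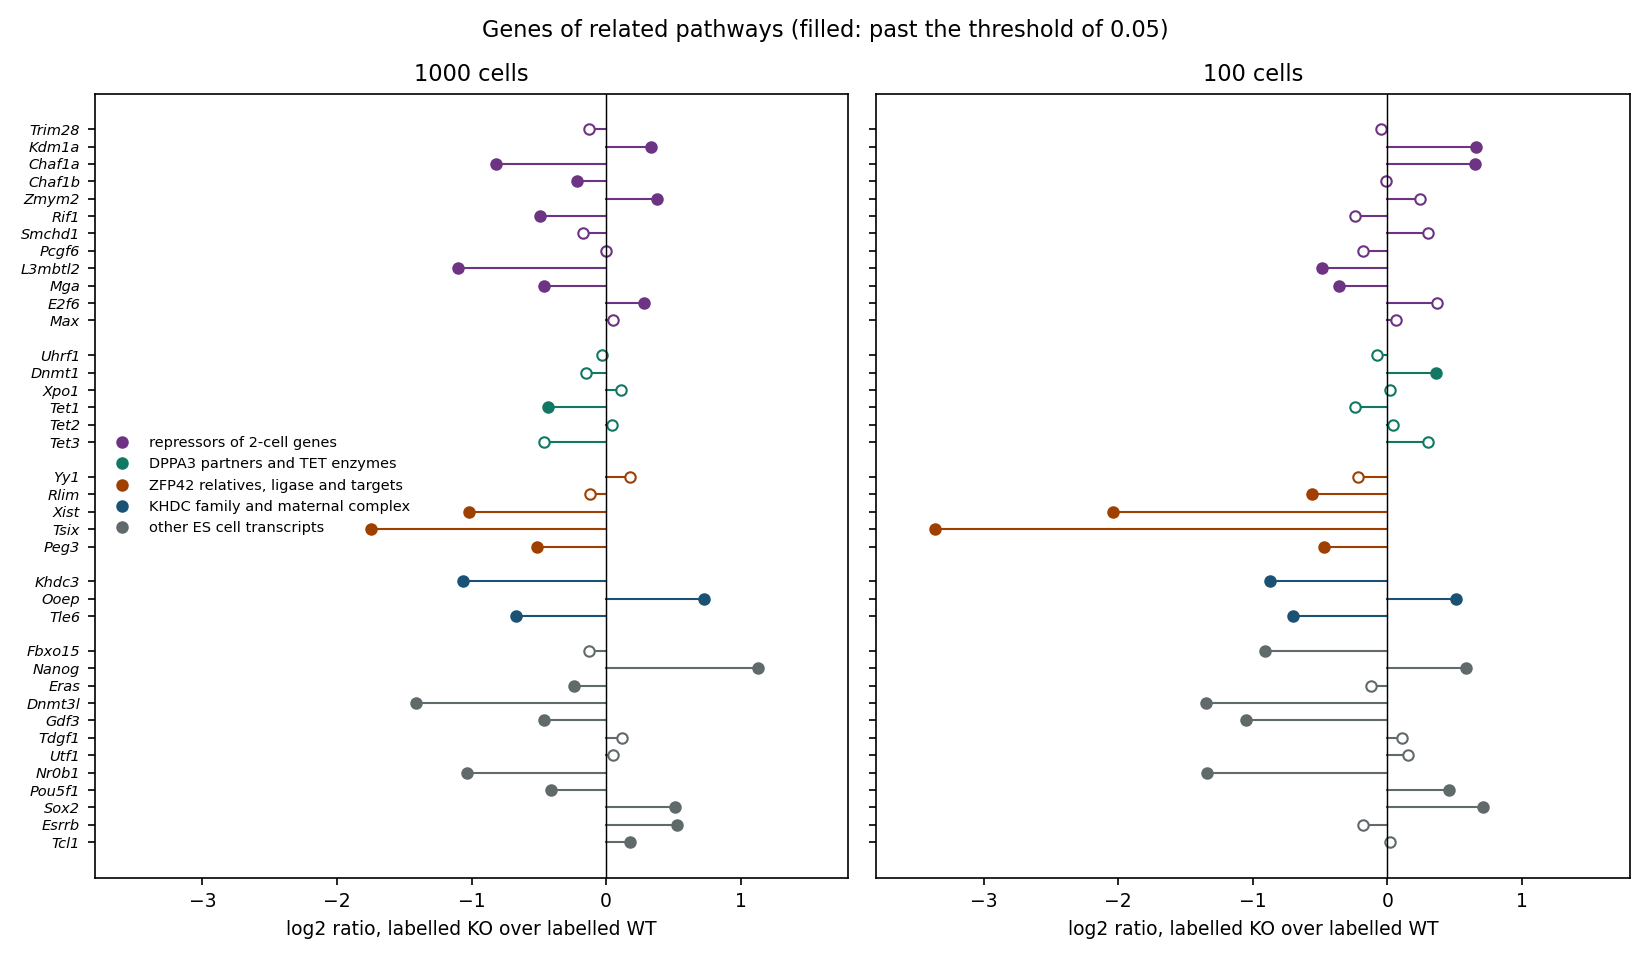
Log2 ratio of labelled KO over labelled WT (x axis) at 1000 cells (left) and 100 cells (right) for tested genes of 5 lists (y axis, colours), filled where the adjusted p was at most 0.05; *Padi6*, at 0 and 1 counts in KO at 100 cells, is left out. *Xist* and *Tsix* lie at -1.02 and -1.75 on the left and -2.04 and -3.36 on the right, and *Nanog* lies above 0 in both (1.13 and 0.58).

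The genes most alike to each member were ranked by Pearson's r of log2(cpm + 0.5) over the 8 libraries, among 8363 other genes whose mean was 10 cpm or more. The 8 points are 4 groups of 2 libraries, so r describes mainly differences by genotype label and input. *Nphs1* (0.996), *Myc* (0.995) and *Prrc1* (0.994) were closest to *Dppa2*. *Hacd2*, *Gcsh* and *Mak16* (each 0.995) were closest to *Dppa3*, *Cd63* and *Aoah* (each 0.997) to *Dppa4*, *Gins1* (0.986), *Rps24* (0.978) and *Mrpl23* (0.978) to *Dppa5a*, and *Prss41* (0.991), *Spag7* (0.988) and *Eif2b1* (0.988) to *Zfp42*. *Myc*, a growth factor response gene, went from 44.7 (WT) to 15.5 cpm (KO) with 1000 cells, a larger ratio (-1.53) than that of *Dppa2*. *Cd63* shared with *Dppa4* the further drop at 100 cells in KO, from 99.0 to 74.9 cpm. Among the members, r was 0.990 for *Dppa2* and *Dppa3* and 0.944 for *Dppa2* and *Dppa4*, and between -0.657 and -0.532 for *Dppa5a* with each of the others.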

How the data were processed

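RNA-Seq was done on 8 libraries in 4 groups of 2. The authors deposited raw counts of fragments per gene. According to the methods and the submitters' processing notes, rRNA reads were removed with Bowtie2 (2.1.0), the rest aligned to mm10 with TopHat2 (2.0.10), and counted without strand by HTSeq (0.6.1) on GENCODE M4, leaving out fragments that fit several genes or places. Symbols, positions and lengths were matched by identifier to GENCODE M21 (42425 of 43309 genes). Genes with at least 10 counts in 1 or more libraries (16816) were tested with the quasi-likelihood test of edgeR (4.0.16, R 4.3.3) after TMM scaling, in 5 comparisons: KO against WT at each input, 100 against 1000 cells in each genotype, and their interaction. Pairwise comparisons used only their 4 libraries. The p-values were adjusted by Benjamini-Hochberg over all tested genes. The step was tested on simulated data, in which every gene and library had the same spread beyond sampling noise. This is unlike the present libraries, so that test does not show how the step performs on them. Alternatives used other scalings, filters, a common depth, DESeq2 (1.42.0), limma-voom (3.58.1), the exact test of edgeR, offsets for GC content and length, blocks and single libraries left out. Replicates differed by more than sampling noise. The chi-square per gene was 17.6 in WT at 100 cells and 1.99 to 3.28 in the other groups. None was therefore taken as a repeat deposit of another library, which does not show that they are separate clones. The members, the lists of related genes and the markers were chosen with earlier results of these data known. Named genes were the members, the listed genes, those within 1 Mb, and the 3 most alike to each member, of which 1 is not reported here.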

Additional observations from a re-analysis of the deposited data

Results flagged for a closer look

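The ratio of labelled KO to labelled WT for *Dppa4* differed between 100 and 1000 cells by -0.41 on the log2 scale, by the interaction test of edgeR (adjusted p = 0.0276). It is listed because the effects at the 2 inputs differed by a test of the difference itself. Of 18 alternatives, 10 kept the call.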

How the results depend on the processing

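At 1000 cells all 80 member results under alternatives kept direction and call, and at 100 cells 74 of 80 did, 4 lost a call, 1 gained one and 1 reversed. Genes called between inputs in WT, 139, became 676 in 1 fit of 8 libraries, 463 with at least 1 count, 212 with DESeq2, 434 with the exact test, 19 with GC and length offsets, 79 with library size alone, 4 at a common depth and 6 to 2631 with a library left out. DESeq2 called 5641 genes between inputs in KO. With a library left out, KO against WT gave 2066 to 9551 genes at 100 cells and 5555 to 6418 at 1000 cells, and the interaction 727 to 5633. Some directions reversed near 0, but between inputs in KO the offsets for GC content and length reversed *Dppa2*, *Dppa3* and *Dppa5a* to called higher. For *Dppa4* between inputs in WT the log2 ratio was 0.0023 in 1 fit, 0.02 with offsets and -0.03 to 0.02 with a library left out. Between inputs in KO, *Dppa2* had 0.02 with at least 10 counts in every library and at a common depth, 0.22 with offsets and -0.02 to 0.02 with a library left out, *Dppa3* 0.18, *Dppa5a* 0.15 and *Zfp42* 0.09 with offsets. The interaction became 0.05, 0.0015, 0.04 and 0.07 with offsets for *Dppa2*, *Dppa3*, *Dppa5a* and *Zfp42*, and was -0.12 to 0.0043 for *Zfp42* with a library left out. With a library left out, *Dppa5a* had -0.10 to 0.24 at 100 cells and -0.03 to 0.26 between inputs in WT, and *Dppa3* -0.10 to 0.25 there. The replicate number as a block gave 285 genes between inputs in WT and 512 with crossed numbers, a pairing chosen after the data were seen, and with the block and offsets *Dppa3* had 0.17 between inputs in KO and 0.0014 for the interaction. Deviations of same-numbered libraries correlated at 0.154 and 0.136 between genotypes and at -0.045 and -0.114 between inputs, so the numbers were not shown to pair the samples. The causes were not tested. With 2 libraries a group, a call can rest on 1 library, and counts carry PCR error beyond counting error.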

Other observations

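Of 5 germ cell genes, which include genes that act beside *Dppa3* in primordial germ cells, 1 was higher and 2 were lower in labelled KO with 1000 cells, and 2 were higher and 2 lower at 100 cells. *Nanos3*, which encodes an RNA-binding protein of primordial germ cells, had means of 9.27 ± 3.27 (WT; SD, n = 2) and 4.59 ± 0.323 cpm (KO) with 1000 cells, and was called lower at both inputs (-1.04 and -1.90, edgeR, adjusted p = 0.00025 and 0.00251). *Prdm1*, a repressor gene that starts the germ line, was lower at both inputs too (-0.53 and -1.38, edgeR, adjusted p = 0.00188 and 0.0013). *Dnd1* went the other way, at 0.38 with 1000 cells (edgeR, adjusted p = 0.0918) and 0.80 with 100 cells (edgeR, adjusted p = 0.0205). *Tdrd9* was not called (0.61 and -2.69). *Ddx4*, a helicase gene of later germ cells, was higher (0.35 and 0.44, edgeR, adjusted p = 0.00973 and 0.0329), a call lost at 1000 cells with scaling by library size alone (0.27, edgeR, adjusted p = 0.0515).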
